A study of Mus musculus with 18 samples.

Results

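The matrix metalloproteinases Mmp2, Mmp3, Mmp9, Mmp10, Mmp13, Mmp14 and Mmp19 and the tissue inhibitors of metalloproteinases Timp1, Timp2 and Timp3 were followed across 18 mouse RNA sequencing libraries. These 10 genes were picked by gene symbol from a table of 26143 genes, with earlier results of these data known. Their shares and medians beside those of all genes are therefore descriptions. All 10 were in the table and all passed the filter on low values, which left 15235 genes for testing. The libraries form 4 groups, and every library is labelled as squamous epithelium. WT holds 3 libraries of wild type esophagus. The remaining groups are tongue: p53 holds 3 libraries heterozygous for the p53 allele R172H, E20 holds 6 libraries with the PIK3CA allele H1047R, and E20/p53 holds 6 libraries with both alleles and K14-Cre. Both mutant alleles are listed with LSL, a stop element between loxP sites, and an LSL allele is expressed once Cre recombinase has cut the element out. K14-Cre, which is Cre under the keratin 14 promoter of basal squamous cells, is named in the labels of E20/p53 only. The series title speaks of tumours started with the carcinogen 4NQO, and the labels of the libraries give no treatment, age or stage. The labels do not tie libraries to animals or cultures, so the p-values below measure how far these libraries spread, and that spread may be technical. In E20 and E20/p53 the spread also holds differences between sets of libraries, described below, and its estimate is shared by all groups.

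Matrix metalloproteinases are zinc proteases that cut the proteins of the extracellular matrix, and most are secreted as inactive proenzymes whose propeptide has to be removed. TIMPs bind the active site of the mature enzymes and block it, so the ratio of protease to inhibitor is a usual measure of the capacity of a tissue to remodel its matrix. In squamous tissue and its carcinomas these genes are made by keratinocytes and by the fibroblasts and other cells of the stroma. RNA levels do not report the activity of the proteases, which also depends on activation of the proenzyme.

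The genes Mmp3, Mmp10 and Mmp13 lie in 1 cluster of metalloproteinase genes on chromosome 9, and their upstream sequences are shown beside those of Timp1 and Timp3. The marked letters of these cluster genes and of the inhibitors differ, and the levels of these 5 genes varied most between sets of libraries among the 7 genes with an entry. Mmp14, a protease outside the cluster, held the kind of marked letters found in the inhibitors, and its sequence is not printed. The sequences are the 250 bases before each RefSeq start on GRCm38.p6, the build that corresponds to the mm10 of the files, written 5′ to 3′ on the plus strand, which is the strand of all 5 genes. Capitals mark TGANTCA, the letters bound by AP-1 dimers of Fos and Jun proteins, TATAAA, the letters of the TATA box, and GGGCGG or its reverse complement CCGCCC, the letters of the GC box bound by Sp factors.
Mmp13 upstream, chr9:7272264-7272513: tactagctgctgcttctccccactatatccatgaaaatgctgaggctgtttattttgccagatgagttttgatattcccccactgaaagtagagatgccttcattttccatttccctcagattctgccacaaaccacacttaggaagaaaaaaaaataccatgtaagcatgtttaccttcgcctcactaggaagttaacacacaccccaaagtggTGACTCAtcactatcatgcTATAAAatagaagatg
Mmp3 upstream, chr9:7445572-7445821: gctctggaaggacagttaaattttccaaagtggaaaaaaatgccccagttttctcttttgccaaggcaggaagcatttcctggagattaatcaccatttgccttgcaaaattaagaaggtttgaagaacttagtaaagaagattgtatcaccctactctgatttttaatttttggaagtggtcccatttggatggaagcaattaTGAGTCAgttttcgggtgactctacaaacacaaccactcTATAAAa
Mmp10 upstream, chr9:7502092-7502341: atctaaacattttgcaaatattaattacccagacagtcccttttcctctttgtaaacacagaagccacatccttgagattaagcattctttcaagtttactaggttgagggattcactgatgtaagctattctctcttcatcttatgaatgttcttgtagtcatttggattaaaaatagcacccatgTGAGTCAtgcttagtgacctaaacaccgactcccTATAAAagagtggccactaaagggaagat
Timp1 upstream, chrX:20869916-20870165: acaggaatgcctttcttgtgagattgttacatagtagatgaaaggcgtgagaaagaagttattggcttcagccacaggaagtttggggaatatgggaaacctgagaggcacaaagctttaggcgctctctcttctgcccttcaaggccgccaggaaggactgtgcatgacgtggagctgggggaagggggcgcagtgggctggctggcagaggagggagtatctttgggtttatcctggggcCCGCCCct
Timp3 upstream, chr10:86300162-86300411: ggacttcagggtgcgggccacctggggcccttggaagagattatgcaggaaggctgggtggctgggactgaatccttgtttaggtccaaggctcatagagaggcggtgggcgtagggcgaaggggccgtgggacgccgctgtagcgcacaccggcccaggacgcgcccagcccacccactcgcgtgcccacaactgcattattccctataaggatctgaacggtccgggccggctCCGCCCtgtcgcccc

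RefSeq promoter entries matched 7 of the 10 genes, and Mmp2, Mmp9 and Mmp19 had none. Both strands were searched for each motif, and no match overlapped another kind of motif. TGANTCA was found 1 time each upstream of Mmp13, Mmp3 and Mmp10, and TATAAA followed it downstream in all 3. Counted from the annotated start, the first base of TGANTCA lay at -35 in Mmp13, -46 in Mmp3 and -63 in Mmp10. The first base of TATAAA lay at -16 in Mmp13, -7 in Mmp3 and -29 in Mmp10, so its distance from the annotated start differed between the 3 genes. Neither motif was in the 250 bases upstream of Mmp14, Timp1, Timp2 or Timp3. Those 4 held GGGCGG on either strand, 2 times for Mmp14 and 1 time for each Timp gene, and the 3 cluster genes did not. RefSeq starts can differ from the gene coordinates given below, which come from another annotation. The bases searched for Timp2 (chr11:118355412-118355661) lie inside the Timp2 coordinates. The last bases searched for Timp3, with its CCGCCC, lie inside the Timp3 coordinates. Among 32851 promoters of the same length, 6.75% held TGANTCA, 12.4% held TATAAA and 32.7% held GGGCGG. A match of letters is a description of the sequence and says nothing of binding in these cells.

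Libraries held 14592044 to 18176060 reads, and levels are given as CPM, which are reads over the scaled library total that the deposited values use, times 1000000. The libraries fell into 6 sets of 3: WT, p53, E20 replicates 1 to 3, E20 replicates 4 to 6, E20/p53 replicates 1 to 3 and E20/p53 replicates 4 to 6. Across genes, which are not independent replicates, libraries of a set correlated at r of 0.991 to 0.994, libraries of a group from different sets at 0.859 to 0.944, and libraries of different groups at 0.809 to 0.948. The labels do not name these sets, which emerged from the values, so levels by set are a description with no test. The keratinocyte list (Krt5, Krt14, Krt13, Krt4, Trp63, Cdh1, Epcam and Dsg3) summed to 666 to 683 CPM in E20/p53 replicates 1 to 3, 81.1 to 98.4 in E20 replicates 1 to 3, 21.7 to 24.5 in WT and at most 4.61 in the libraries of the other 3 sets. Krt14, Krt5 and Trp63 made up most of the larger sums, reaching 495, 136 and 67.9 CPM in E20/p53. No E20/p53 library passed 2.47 CPM for Cdh1, 1.12 for Krt13, 0.864 for Epcam, 0.448 for Dsg3 or 0.112 for Krt4. Of the 8 genes, 4 had a set mean of 1 CPM or more in E20/p53 replicates 1 to 3 and 3 in E20 replicates 1 to 3. Krt4 and Dsg3 were at 0 in WT, Dsg3 in p53, Krt4 in E20 replicates 1 to 3, Krt13, Krt4, Cdh1 and Epcam in E20 replicates 4 to 6, and Krt5, Krt4 and Epcam in E20/p53 replicates 4 to 6. The fibroblast list (Col1a1, Col1a2, Col3a1, Pdgfra, Dcn, Lum, Thy1 and Fap) summed to 111 to 116 CPM in E20/p53 replicates 1 to 3, 1445 to 1567 in WT, 8471 to 9235 in p53 and 16901 to 21694 in the other sets, with Lum at 0 in WT, E20 replicates 1 to 3 and E20/p53 replicates 4 to 6. The collagens led the larger sums, with set means of Col1a1, Col1a2 and Col3a1 of 9256, 7391 and 3733 CPM in E20/p53 replicates 4 to 6. Over all E20/p53 libraries Pdgfra kept to 47.6 to 69.9 CPM, Dcn to 6.01 to 16.1 and Fap to at most 3.13. Pdgfra was higher in p53, at 384 to 402 CPM, than in E20, at 58.4 to 199. The sums thus do not speak for each gene of the list. Keratinocyte transcripts were thus few, against the label of squamous epithelium, in p53, E20 replicates 4 to 6 and E20/p53 replicates 4 to 6. In WT, Krt5 of basal squamous cells was at 0.0784 ± 0.0680 CPM (SD, n = 3) and Krt13 at 2.05 ± 0.545 CPM, while the simple epithelium list (Krt8, Krt18, Krt19 and Krt7) summed to 273 to 289 CPM, against at most 9.38 in any tongue library. The skeletal muscle list (Myod1, Myog, Myf5, Acta1, Mylpf, Chrna1 and Des) summed to 2058 to 2207 CPM in p53, 709 to 833 in the E20 sets and E20/p53 replicates 4 to 6, and at most 3.91 in WT and E20/p53 replicates 1 to 3. All 7 genes had a set mean of 1 CPM or more in p53 and E20/p53 replicates 4 to 6. In E20 replicates 1 to 3 this held for 3, in E20 replicates 4 to 6 for 4, in WT for 2 and in E20/p53 replicates 1 to 3 for 1. Myod1, Myog and Myf5 were at 0 in WT and E20/p53 replicates 1 to 3, as was Chrna1 in the latter. The part of these markers in the results below was not tested, and in bulk libraries fewer cells of a type and less RNA per cell cannot be told apart.

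**Figure D1:**
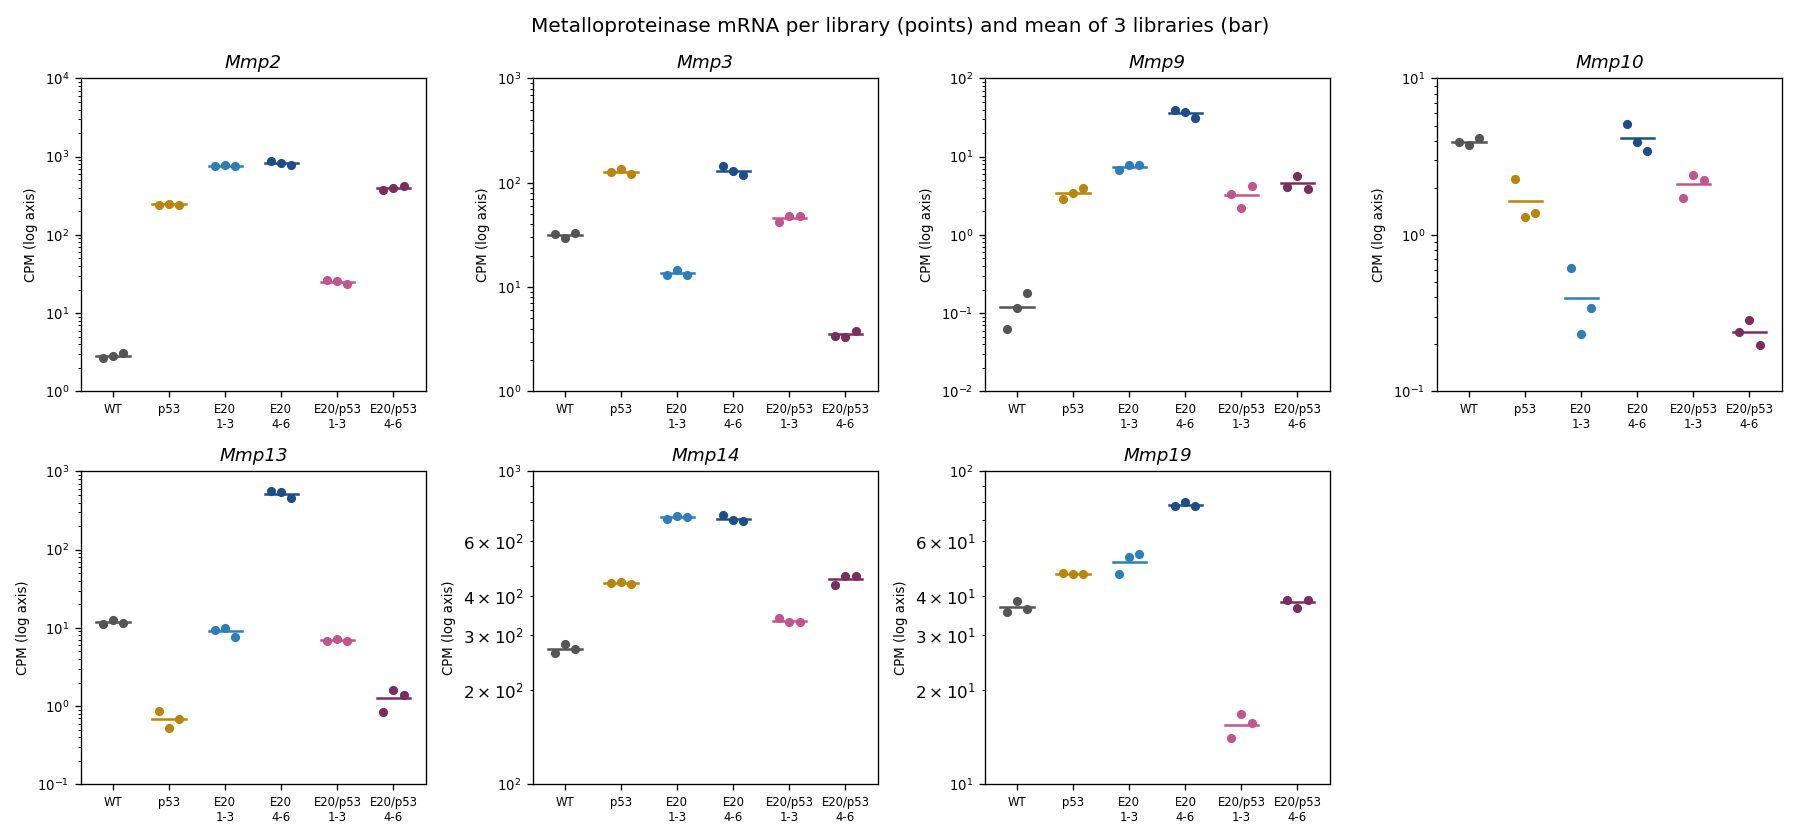
Level of the 7 metalloproteinase genes in each of the 18 libraries, in CPM on a log axis, with libraries in their 6 sets of 3 on the x axis and a bar at the mean of each set. Mmp13 stands at 455 to 568 in E20 replicates 4 to 6 and at 12.6 or less in every other library, and Mmp14 keeps to 262 to 723 throughout.

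The gelatinases degrade denatured collagen and the type IV collagen of basement membranes. Mmp2 (gelatinase A, chr8:92827291-92853420, plus strand) stood at 2.67, 2.82 and 3.07 CPM in WT and at 244, 251 and 244 in p53. Its level was 749.7, 793 and 758 in E20 replicates 1 to 3 and 887, 838 and 772 in E20 replicates 4 to 6. In E20/p53 it was 26.4, 25.4 and 23.3 in replicates 1 to 3 and 376, 403 and 417 in replicates 4 to 6. All tongue libraries lay above all WT libraries, and the order from low to high was WT, E20/p53 replicates 1 to 3, p53, E20/p53 replicates 4 to 6 and then the E20 sets, which overlapped. Mmp9 (gelatinase B, chr2:164940780-164955850, plus strand) had 1, 2 and 3 reads in WT, or 0.0621, 0.115 and 0.18 CPM, and 2.88, 3.39 and 4.03 CPM in p53. It reached 6.68, 7.83 and 7.76 in E20 replicates 1 to 3 and 39.9, 36.8 and 30.9 in E20 replicates 4 to 6. In E20/p53 the level was 3.33, 2.19 and 4.27 in replicates 1 to 3 and 4.11, 5.74 and 3.88 in replicates 4 to 6. Every E20 library stood above every library of the other groups, WT was lowest, and the p53 set and both E20/p53 sets overlapped. Mmp2 and Mmp9 thus shared the order of the 6 set means, while Mmp2 was 15.9-fold higher in E20/p53 replicates 4 to 6 than in replicates 1 to 3 and Mmp9 was 1.40-fold higher.

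The stromelysins cut proteoglycans, laminin and fibronectin and can activate other metalloproteinases. Mmp3 (stromelysin-1, chr9:7445822-7455975, plus strand) stood at 32.3, 29.4 and 32.7 CPM in WT and at 126, 136 and 121 in p53. It was 13.0, 14.7 and 12.9 in E20 replicates 1 to 3 and 144, 130.0 and 117 in replicates 4 to 6. In E20/p53 it was 42.1, 48.5 and 47.6 in replicates 1 to 3 and 3.39, 3.35 and 3.82 in replicates 4 to 6. Of the 6 sets only p53 and E20 replicates 4 to 6 overlapped, at the top, and in E20 as in E20/p53 the sets lay on either side of WT. Mmp10 (stromelysin-2, chr9:7502352-7510240, plus strand) was low throughout, at 3.91, 3.74 and 4.15 CPM in WT and 2.28, 1.30 and 1.39 in p53. Its level was 0.613, 0.234 and 0.34 in E20 replicates 1 to 3, which is 9, 4 and 5 reads, and 5.14, 3.94 and 3.43 in replicates 4 to 6. In E20/p53 it was 1.73, 2.41 and 2.25 in replicates 1 to 3 and 0.238, 0.284 and 0.197 in replicates 4 to 6, the latter from 4, 5 and 3 reads. The sets paired by overlap: E20 replicates 4 to 6 with WT at the top, E20/p53 replicates 1 to 3 with p53 in the middle, and E20 replicates 1 to 3 with E20/p53 replicates 4 to 6 at the bottom.

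Mmp13 is the main collagenase of interstitial fibrillar collagen in the mouse. Mmp13 (chr9:7272514-7283331, plus strand) stood at 11.4, 12.6 and 11.7 CPM in WT and at 0.87, 0.521 and 0.693 in p53. It was 9.47, 9.99 and 7.62 in E20 replicates 1 to 3 and 568, 539.5 and 455 in E20 replicates 4 to 6. In E20/p53 its level was 6.79, 7.29 and 6.74 in replicates 1 to 3 and 0.834, 1.59 and 1.38 in replicates 4 to 6. E20 replicates 4 to 6 stood apart from all other libraries, WT came next, and p53 overlapped E20/p53 replicates 4 to 6 at the bottom. The set means of Mmp13 spanned 9.44 log2 units, a range that exceeded that of 99.3% of the genes tested.

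Mmp14, the membrane-type metalloproteinase that activates pro-Mmp2 at the cell surface, varied least. Mmp14 (chr14:54431612-54445364, plus strand) was 262, 281 and 269.9 CPM in WT and 441, 443 and 437 in p53. Its level was 706, 723 and 713 in E20 replicates 1 to 3 and 723, 700.4 and 695 in replicates 4 to 6, and it was 339, 329.6 and 329.7 in E20/p53 replicates 1 to 3 and 434, 464 and 464 in replicates 4 to 6. WT was lowest and the 6 E20 libraries were highest with their sets overlapping, while p53 overlapped E20/p53 replicates 4 to 6. Mmp19 (chr10:128790910-128800824, plus strand), a secreted metalloproteinase found in epidermis among other tissues, was 35.4, 38.5 and 36.4 CPM in WT and 47.5, 47.1 and 47.0 in p53. It was 46.9, 53.29 and 54.4 in E20 replicates 1 to 3, 77.5, 79.8 and 77.3 in E20 replicates 4 to 6, 14.1, 16.8 and 15.7 in E20/p53 replicates 1 to 3 and 38.7, 36.7 and 39.0 in E20/p53 replicates 4 to 6. E20/p53 replicates 1 to 3 were lowest and E20 replicates 4 to 6 highest, WT overlapped E20/p53 replicates 4 to 6, and p53 overlapped E20 replicates 1 to 3. Mmp19 shares 789 exon bases with Tmem198b on the opposite strand, which stood at 16.9 to 30.6 CPM. The library kit keeps strand, but the strand setting of the authors' counting is not given in the sources used here, so reads of the pair cannot be told apart.

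**Figure D2:**
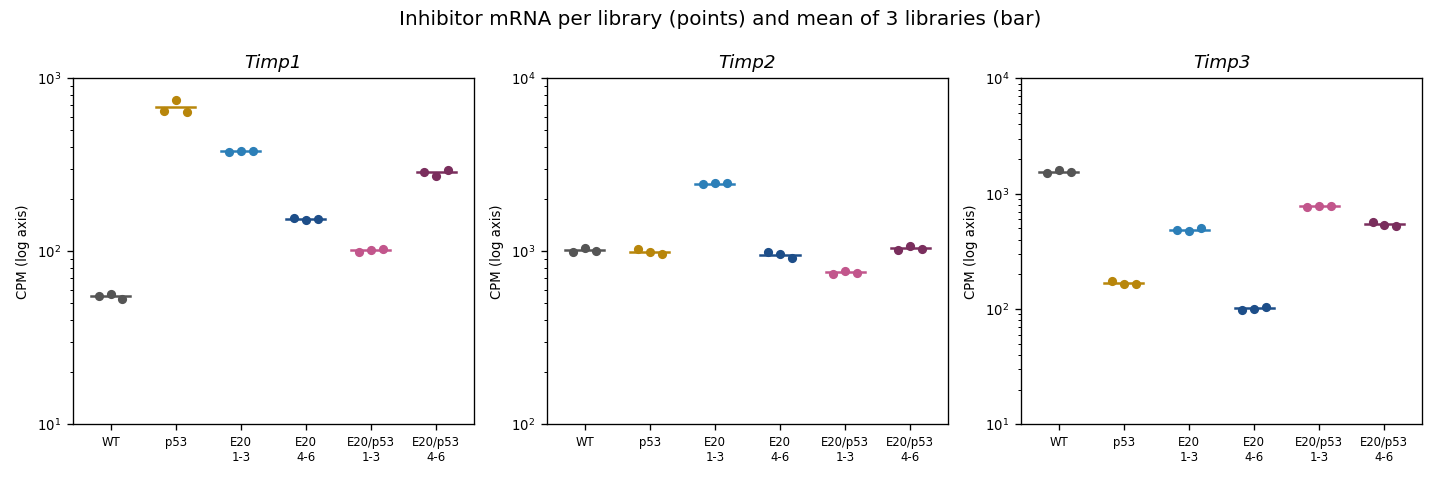
Level of Timp1, Timp2 and Timp3 in each of the 18 libraries, in CPM on a log axis, with libraries in their 6 sets of 3 on the x axis and a bar at the mean of each set. Timp1 is highest in p53 and Timp3 in WT, and Timp2 stands at 2453 to 2474 in E20 replicates 1 to 3 and at 740.2 to 1068 elsewhere.

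Of the inhibitors, Timp1 is a secreted protein with high affinity for Mmp9 and low affinity for the membrane-type enzymes. Timp1 (chrX:20870166-20874735, plus strand) was 55.5, 56.5 and 53.04 CPM in WT and 648, 755 and 640.3 in p53. Its level was 374, 383 and 379.8 in E20 replicates 1 to 3 and 157, 152 and 153 in replicates 4 to 6. In E20/p53 it was 99.4, 102 and 103 in replicates 1 to 3 and 289, 274 and 297 in replicates 4 to 6. No sets of Timp1 overlapped, WT was lowest and p53 highest. Timp1 is X-linked, and Xist, a transcript made from an inactive X chromosome, stood at 893 ± 90.4 CPM (SD, n = 3) and 1303 ± 41.7 CPM (SD, n = 3) in the E20 sets and at no more than 0.893 CPM in any library of the other groups. The part of this difference between libraries in the Timp1 levels was not tested.

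Timp2 inhibits most metalloproteinases and also takes part in the activation of pro-Mmp2 by Mmp14. Timp2 (chr11:118301069-118355740, minus strand) was 997, 1043 and 1005 CPM in WT and 1027, 997 and 972 in p53. It was 2453, 2473 and 2474 in E20 replicates 1 to 3 and 988, 968 and 921 in replicates 4 to 6. In E20/p53 it was 740.2, 774 and 752 in replicates 1 to 3 and 1024, 1068 and 1026 in replicates 4 to 6. Timp2 stood apart at the top in E20 replicates 1 to 3 and at the bottom in E20/p53 replicates 1 to 3, and each of the other 4 sets overlapped its neighbour in the order. Timp3 is bound to the extracellular matrix and inhibits ADAM proteases such as Adam17 as well as metalloproteinases. Timp3 (chr10:86300372-86349506, plus strand) was 1509.9, 1609 and 1533 CPM in WT and 176, 166 and 166 in p53. Its level was 485, 478 and 501 in E20 replicates 1 to 3 and 99.0, 100.3 and 105 in replicates 4 to 6, and it was 768, 788 and 783 in E20/p53 replicates 1 to 3 and 573, 532 and 521 in replicates 4 to 6. The sets of Timp3 did not overlap, with WT highest and E20 replicates 4 to 6 lowest. Timp3 shares 1733 exon bases with Syn3 on the opposite strand, and Syn3 stood at 0.271 to 3.33 CPM.

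The comparison of E20/p53 with E20 asks how tongue with both alleles differs from tongue with the PIK3CA allele, and the groups also differ by the listing of K14-Cre. Sex-linked transcripts differed between them as well: the Y-linked Eif2s3y was at 0 in all E20 libraries and at 66.2 to 109 CPM in E20/p53, opposite to Xist, so allele, Cre listing and this difference cannot be told apart. Of the 7 metalloproteinases 5 were lower in E20/p53, and of the 3 inhibitors Timp2 was lower and Timp3 higher. Mmp13 was 4.10 ± 3.12 CPM (SD, n = 6) in E20/p53 and 265 ± 283 CPM in E20, a log2 difference of -4.51 (SE 1.12, adjusted p = 0.00425 by limma). The log2 difference of Mmp2 was -2.998 (SE 0.70, adjusted p = 0.0028), with 212 ± 205 CPM in E20/p53 and 799.6 ± 53.35 CPM in E20. Mmp9 (-2.09, SE 0.45, adjusted p = 0.00142), Mmp19 (-1.38, SE 0.26, adjusted p = 4.6e-04) and Mmp14 (-0.87, SE 0.09, adjusted p = 1.2e-06) were also lower, and in Mmp2, Mmp9, Mmp13, Mmp14 and Mmp19 no E20/p53 library overlapped an E20 library. Timp2 was lower by the test (-0.80, SE 0.26, adjusted p = 0.0209) although its groups overlapped. Timp3 was higher, by 1.55 log2 units (SE 0.41, adjusted p = 0.00656), and its groups did not overlap. The log2 differences were -1.71 for Mmp3 (adjusted p = 0.123), -0.74 for Mmp10 (adjusted p = 0.472) and -0.50 for Timp1 (adjusted p = 0.263), and these 3 genes did not pass. Thus 1 member was higher and 6 were lower, where 42.6% of all genes tested were called, 23% higher and 19.6% lower. Without overlap were 1 member higher and 5 lower, against 11.3% and 11.2% of all genes and 22.5% in either direction. The median log2 difference of the 10 members was -1.13, against 0.05 for all genes. The members were chosen with earlier results of these data known, so these shares and medians are no test of the members as a set.

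Single sets carried parts of this comparison. Without E20 replicates 4 to 6 the Mmp13 difference was -1.59 (adjusted p = 0.0592), and without E20/p53 replicates 4 to 6 it was -3.29 (adjusted p = 0.0505). The Timp2 call was lost without E20 replicates 1 to 3 (-0.11, adjusted p = 0.481), without E20/p53 replicates 1 to 3 (-0.56, adjusted p = 0.16), and without E20 replicate 1 or E20 replicate 2 alone (adjusted p = 0.0502 and 0.0501). Timp3 lost its call without E20/p53 replicates 1 to 3 (1.28, adjusted p = 0.0584). Mmp3 and Mmp10, which did not pass with all libraries, were lower without E20 replicates 1 to 3 by 3.34 and 2.38 log2 units (adjusted p = 0.00805 and 0.0162). Without E20/p53 replicates 4 to 6 they turned to 0.13 and 0.69, and Mmp10 turned to 0.89 without E20 replicates 4 to 6, all uncalled. Timp1 was called lower by limma without E20 replicates 4 to 6 (-1.15, adjusted p = 0.0242) and without E20/p53 replicates 4 to 6 (-1.25, adjusted p = 0.00286). It turned to 0.15 without E20 replicates 1 to 3 and to 0.25 without E20/p53 replicates 1 to 3, both uncalled.

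**Figure D3:**
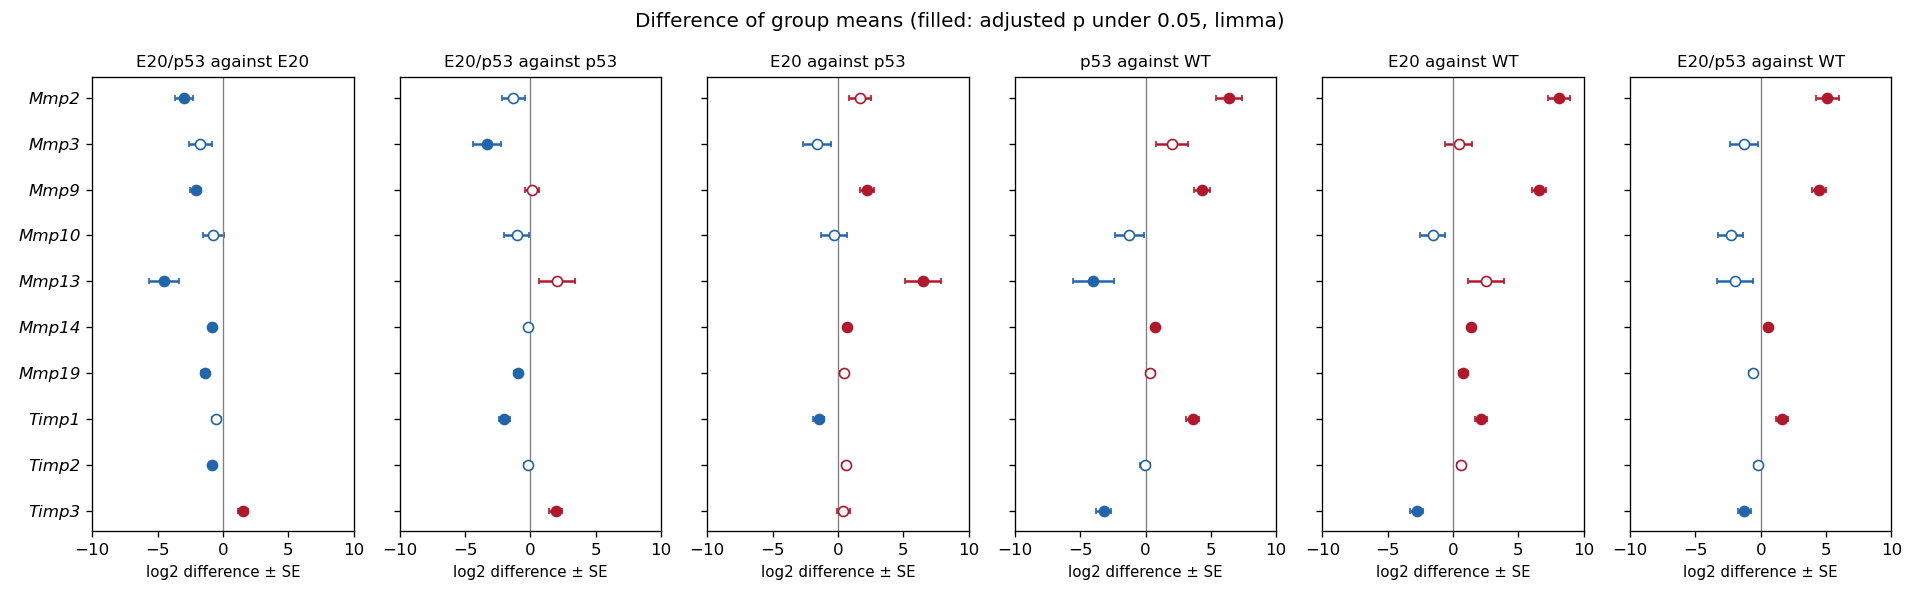
Log2 difference of each of the 10 genes in the 6 comparisons, with bars of 1 SE and filled symbols for an adjusted p under 0.05 by limma. In E20/p53 against E20 the called metalloproteinases lie below 0 and Timp3 lies at 1.55.

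E20/p53 was next set against p53, which differ by the PIK3CA allele and by the listing of K14-Cre. Timp1 was lower in E20/p53, at 194 ± 102 CPM (SD, n = 6) against 681 ± 64.0 CPM (SD, n = 3), a log2 difference of -1.99 (SE 0.43, adjusted p = 0.00312). Mmp3 (-3.31, SE 1.06, adjusted p = 0.0312) and Mmp19 (-0.96, SE 0.32, adjusted p = 0.0351) were lower and Timp3 was higher (1.94, SE 0.50, adjusted p = 0.0104). The other 6 members did not pass, and their log2 differences ran from -1.30 for Mmp2 to 2.01 for Mmp13. That made 1 member higher and 3 lower, where 25.8% of genes were called, 12.9% in each direction, and the members' median was -0.57 against 0.02 for all genes. Mmp3 and Mmp19 lost the call without any 1 p53 library (adjusted p from 0.084 to 0.1), Mmp3 also without E20/p53 replicates 4 to 6 (-1.47, adjusted p = 0.164), and Mmp19 without E20/p53 replicate 1, 2 or 3 (adjusted p from 0.0658 to 0.0689) and without all 3 of them (-0.31, adjusted p = 0.199). Timp3 lost the call without E20/p53 replicates 1 to 3 (1.67, adjusted p = 0.0509), and with the compared groups alone in the fit Mmp3 (adjusted p = 0.0652) and Mmp19 (adjusted p = 0.121) lost theirs. Mmp2 turned with the set kept, to 0.69 without E20/p53 replicates 1 to 3 (adjusted p = 4.4e-06) and -3.30 without replicates 4 to 6 (adjusted p = 2.5e-13). Mmp14 was called lower by limma without E20/p53 replicates 4 to 6 (-0.40, adjusted p = 1.1e-06) and stood at 0.0441 without replicates 1 to 3 (adjusted p = 0.482).

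Against p53, E20 had more Mmp13, Mmp9 and Mmp14 and less Timp1. Xist, as given above, was also far higher in E20 than in p53, so allele and this difference cannot be told apart in this comparison. The log2 difference was 6.52 for Mmp13 (SE 1.37, adjusted p = 0.00182), 2.24 for Mmp9 (SE 0.55, adjusted p = 0.00531) and 0.69 for Mmp14 (SE 0.11, adjusted p = 1.7e-04). Timp1 was lower by the test, at -1.49 (SE 0.43, adjusted p = 0.0146). Mmp2 had a log2 difference of 1.69 and an adjusted p of 0.15, although every E20 library stood above every p53 library, and it was called with the E20 and p53 libraries alone in the fit (adjusted p = 2.3e-07). The comparison called 3 members higher and 1 lower, where 30.9% of genes were called, 14.5% higher and 16.4% lower. The members' median was 0.52 against -0.01 for all genes. Timp1 lost its call without p53 replicate 2 (adjusted p = 0.0604) and without E20 replicates 4 to 6 (-0.84, adjusted p = 0.16), and Timp3 went from 0.39 to -0.74 without E20 replicates 1 to 3 (adjusted p = 0.00207) and to 1.52 without E20 replicates 4 to 6 (adjusted p = 1.2e-05). Without E20 replicates 4 to 6 limma also called Timp2 higher (1.30, adjusted p = 2.1e-05) and Mmp3 lower (-3.23, adjusted p = 0.0314). Without E20 replicates 1 to 3 these 2 genes were at -0.0587 and 0.027, uncalled.

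The comparisons with WT set tongue against esophagus, so genotype and tissue cannot be told apart in them, and the 3 of them share the WT libraries. Xist was also far higher in E20 than in WT, and in E20 against WT this difference cannot be told apart from genotype and tissue. In p53 against WT, Mmp2, Mmp9, Timp1 and Mmp14 were higher and Mmp13 and Timp3 lower. Mmp2 differed by 6.41 log2 units (SE 0.99, adjusted p = 6.0e-05), Timp1 by 3.62 (SE 0.50, adjusted p = 1.7e-05) and Mmp14 by 0.70 (SE 0.13, adjusted p = 2.3e-04). Timp3 had a log2 difference of -3.19 (SE 0.58, adjusted p = 2.6e-04) and Mmp13 of -4.00 (SE 1.59, adjusted p = 0.0428). The call of Mmp13 was lost when any 1 of the 6 libraries was left out (adjusted p from 0.0737 to 0.0994). Mmp3 (2.02, adjusted p = 0.176), Mmp10 (-1.26, adjusted p = 0.356), Mmp19 (0.36, adjusted p = 0.42) and Timp2 (-0.02, adjusted p = 0.961) did not pass. The spread behind these calls is shared with the other groups: with the p53 and WT libraries alone in the fit, Mmp3 (adjusted p = 9.5e-12), Mmp10 (adjusted p = 1.9e-04) and Mmp19 (adjusted p = 5.2e-05) were called. Without overlap between p53 and WT were 6 members higher and 3 lower, where 82.2% of all genes did not overlap, 43.2% higher and 38.9% lower. The 4 members called higher and 2 called lower stand beside 54.2% of all genes called, 29.3% higher and 24.9% lower, and the members' median was 0.53 against 0.04 for all genes.

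Against WT, E20 called Mmp2 (8.10, SE 0.86, adjusted p = 8.2e-07), Mmp9, Timp1 (2.13, SE 0.43, adjusted p = 5.3e-04), Mmp14 (1.39, SE 0.11, adjusted p = 2.4e-08) and Mmp19 (0.79, SE 0.32, adjusted p = 0.0437) higher and Timp3 lower (-2.80, SE 0.50, adjusted p = 1.9e-04). These 5 higher and 1 lower members compare with 55.3% of all genes called, 29% higher and 26.4% lower, and the members' median was 1.09 against 0.04 for all genes. Mmp13 did not pass (2.52, adjusted p = 0.131), and its difference was 5.44 without E20 replicates 1 to 3 (adjusted p = 2.7e-05) and -0.40 without E20 replicates 4 to 6 (adjusted p = 0.654). Mmp19 lost its call without any 1 WT library, without E20 replicate 4, 5 or 6 (adjusted p from 0.0747 to 0.109 over the 6), and with plain library totals (0.62, adjusted p = 0.0619). The call was also lost without all of E20 replicates 4 to 6 (0.48, adjusted p = 0.282) and with the replicate block (0.31, adjusted p = 0.108). With upper-quartile scaling, without a filter and without the mean-variance trend, limma gave Mmp19 an adjusted p of 0.0522, 0.0525 and 0.0501. When E20/p53 was set against WT, Mmp2 (5.10, SE 0.86, adjusted p = 1.3e-04), Mmp9, Timp1 (1.63, SE 0.43, adjusted p = 0.00515) and Mmp14 (0.52, SE 0.11, adjusted p = 9.3e-04) were higher and Timp3 lower (-1.25, SE 0.50, adjusted p = 0.0496). That is 4 members higher and 1 lower, with 48.1% of all genes called, 26.5% higher and 21.6% lower, and the members' median was -0.40 against 0.05 for all genes. Timp3 lost this call without any 1 WT or E20/p53 library (adjusted p from 0.0521 to 0.119). Mmp10 did not pass (-2.31, adjusted p = 0.0597), but limma called it lower without E20/p53 replicate 1, 2 or 3 (adjusted p from 0.0354 to 0.0465). Without all 3 of them limma called Mmp10 (-3.74, adjusted p = 0.00293) and Mmp3 (-3.14, adjusted p = 0.00657) lower, with Mmp19 at 0.0528, uncalled. Without E20/p53 replicates 4 to 6 it called Mmp19 lower (-1.25, adjusted p = 3.9e-05), with Mmp3 at 0.55, uncalled. For Mmp9 the WT group held 6 reads in all, so its difference depends on the pseudocount: 4.33, 6.56 and 4.47 log2 units in p53, E20 and E20/p53 became 1.98, 3.97 and 2.10 on the log2 of CPM plus 1 scale, and all stayed called.

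Over the 6 comparisons 32 of 60 member differences were called, 5 each for Mmp9, Mmp14, Timp1 and Timp3 and none for Mmp10. Because libraries of a set resemble each other, the fit was repeated on the 6 set means, with 2 residual degrees of freedom. No member was then called by limma in any comparison, and at an unadjusted p under 0.05 there were 1 in E20/p53 against E20, 4 in p53 against WT, 4 in E20 against WT, 2 in E20/p53 against WT and 0 in the other 2 comparisons.

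The difference between the sets of a group was as large for several members as the difference between groups. In E20, replicates 4 to 6 stood above replicates 1 to 3 by 57.7-fold for Mmp13, 10.5-fold for Mmp10, 9.61-fold for Mmp3 and 4.83-fold for Mmp9, and below them by 4.81-fold for Timp3, 2.57-fold for Timp2 and 2.46-fold for Timp1. All 3 inhibitors were thus lower and the 3 cluster genes and Mmp9 higher in E20 replicates 4 to 6, while Mmp2 and Mmp14 differed by 1.09-fold and 1.01-fold. In E20/p53 the cluster genes ran the other way: replicates 4 to 6 stood below replicates 1 to 3 by 13.1-fold for Mmp3, 8.87-fold for Mmp10 and 5.47-fold for Mmp13, and above them by 15.9-fold for Mmp2, 2.82-fold for Timp1 and 2.46-fold for Mmp19. A difference of 1 log2 unit or more between the sets was seen for 7 of 10 members in E20, against 17.2% of all genes, and for 6 of 10 in E20/p53, against 29.7%. The fibroblast list was at 16901 to 21694 CPM in both E20 sets and in E20/p53 replicates 4 to 6, and at 111 to 116 CPM in E20/p53 replicates 1 to 3. The smooth muscle and pericyte list (Acta2, Tagln, Myh11, Cnn1 and Rgs5) was at 4499 to 4829 CPM in E20 replicates 1 to 3 and 921 to 964 in E20 replicates 4 to 6, and at 409 to 429.9 and 3462 to 3626 CPM in E20/p53 replicates 1 to 3 and 4 to 6. The keratinocyte list was at 81.1 to 98.4 CPM in E20 replicates 1 to 3 and 3.23 to 3.60 in E20 replicates 4 to 6. Across the 6 set means the median range of the members was 3.87 log2 units, against 1.26 for all genes. E20 replicates 4 to 6 held the highest mean of 6 of the 10 members, against 15.1% of all genes, and WT the lowest of 4, against 26.5%. As the members were chosen with earlier results of these data known, these shares and ranges are descriptions.

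**Figure D4:**
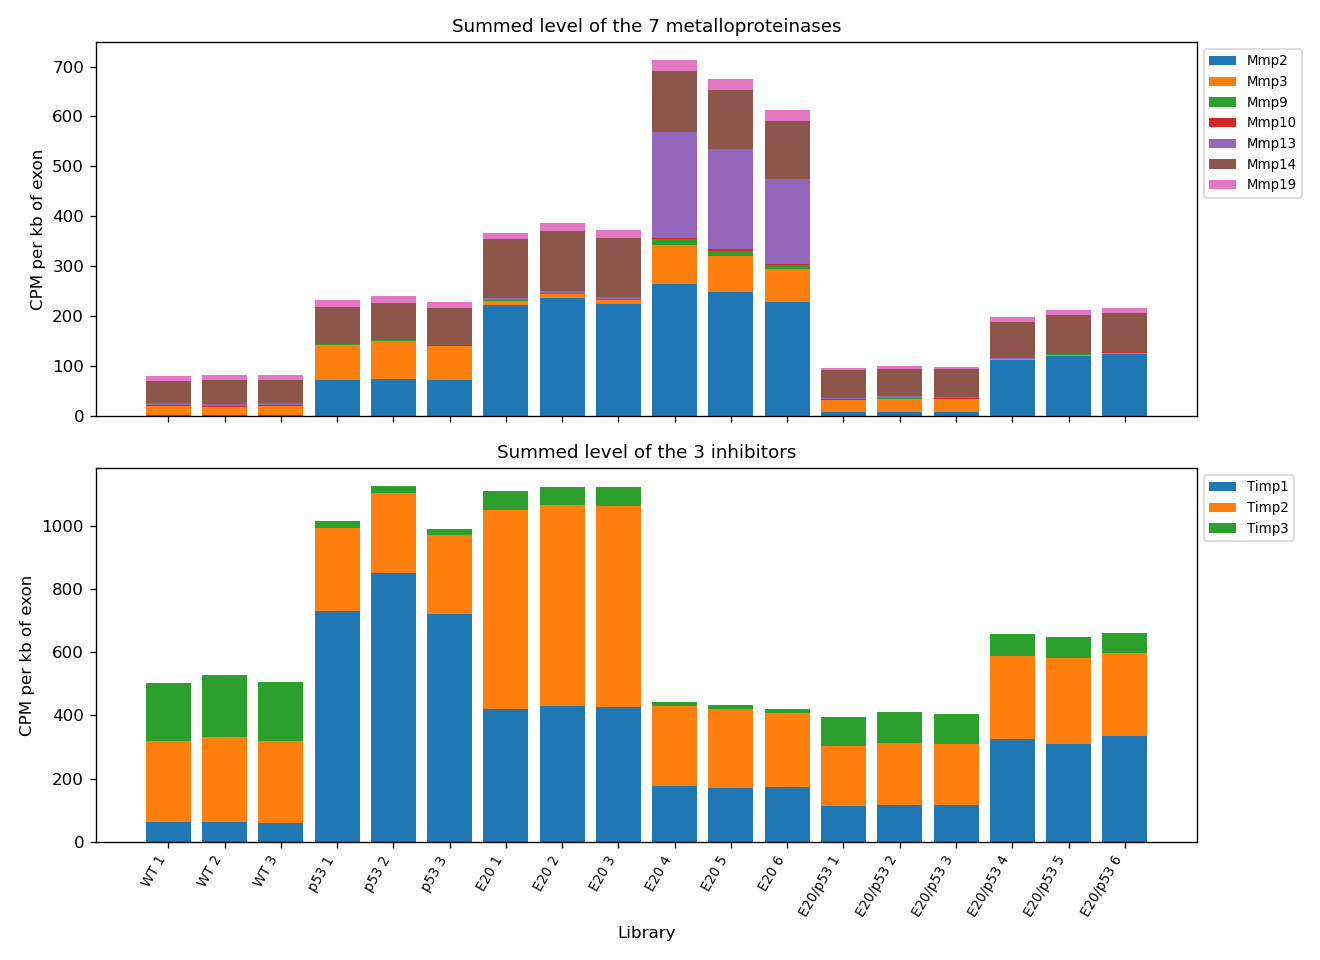
Summed level of the 7 metalloproteinases and of the 3 inhibitors per kilobase of exon in each of the 18 libraries, stacked by gene in 1 panel for each sum, with the libraries on the x axis and bars from 0. Protease bars reach 613 to 713 CPM per kilobase in E20 replicates 4 to 6, where the inhibitor bars reach 421 to 442.

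To set genes beside each other, levels were divided by the length of the exons (CPM per kilobase) and summed. The 7 metalloproteinases together stood at 81.0 CPM per kilobase in WT, 98.0 in E20/p53 replicates 1 to 3, 209 in E20/p53 replicates 4 to 6, 233 in p53, 375 in E20 replicates 1 to 3 and 667 in E20 replicates 4 to 6. The inhibitors summed to 513, 404, 656, 1044, 1120 and 432 CPM per kilobase in the same order. The ratio of inhibitor to protease was 6.33 ± 0.116 (SD, n = 3) in WT, 4.47 ± 0.20 in p53, 4.12 ± 0.0151 in E20/p53 replicates 1 to 3, 3.14 ± 0.146 in E20/p53 replicates 4 to 6, 2.99 ± 0.0625 in E20 replicates 1 to 3 and 0.649 ± 0.0343 in E20 replicates 4 to 6. Inhibitor RNA exceeded protease RNA in 5 of the 6 sets, and E20 replicates 4 to 6 were the exception. Lengths of the longest transcript, an alternative chosen after seeing the data, gave ratios of 5.55, 3.55, 3.32, 2.53, 2.40 and 0.575 in that order.

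The make-up of the sums also differed. Mmp14 was 56.2% of the protease sum in WT and 57.0% in E20/p53 replicates 1 to 3, where Mmp3 gave a further 21.6% and 26.1%. Mmp2 led in E20 replicates 1 to 3 with 60.6% and in E20/p53 replicates 4 to 6 with 56.5%. In p53, Mmp2, Mmp3 and Mmp14 held 31.3%, 30.3% and 31.7%. E20 replicates 4 to 6 were the only set in which Mmp13 passed 10%, at 29.1%, beside 37.0% for Mmp2 and 17.8% for Mmp14. Among the inhibitors Timp2 was the largest part in WT (50.8%), both E20 sets (56.5% and 57.0%) and E20/p53 replicates 1 to 3 (48.0%). Timp1 led in p53 with 73.4% and in E20/p53 replicates 4 to 6 with 49.2%, and the share of Timp3 ran from 37.1% in WT to 2.00% in p53.

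**Figure D5:**
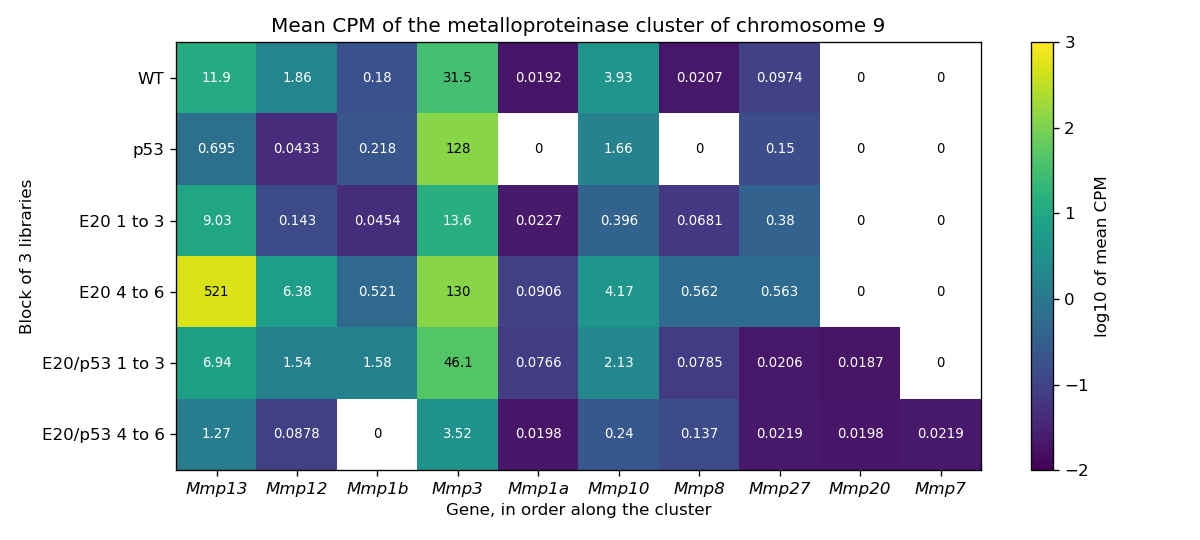
Mean CPM over 3 libraries of each gene of the chromosome 9 metalloproteinase cluster (columns, in order along the chromosome) in the 6 sets (rows), printed in each cell and coloured by its log10, with white for 0. Mmp13, Mmp12, Mmp3 and Mmp10 are highest in E20 replicates 4 to 6.

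The chromosome 9 cluster (chr9:7272514-7699585) holds 10 metalloproteinase genes in the annotation, in the order Mmp13, Mmp12, Mmp1b, Mmp3, Mmp1a, Mmp10, Mmp8, Mmp27, Mmp20 and Mmp7. Of these 5 passed the filter. Mmp13, Mmp12, Mmp3 and Mmp10 had their highest mean in E20 replicates 4 to 6, and Mmp1b, a rodent homologue of human collagenase, had its highest mean, 1.58 CPM, in E20/p53 replicates 1 to 3. Mmp12, the macrophage elastase, was 6.38 CPM in E20 replicates 4 to 6, 1.86 in WT, 1.54 in E20/p53 replicates 1 to 3 and no more than 0.143 in the other sets. The macrophage list (Csf1r, Adgre1, Cd68 and Lyz2) summed to 3.91 to 5.42 CPM in E20 replicates 4 to 6 and reached 22.9 CPM in E20/p53 replicates 1 to 3, with Adgre1 at 0 in all 6 sets. Mmp12 and Mmp1b overlap on opposite strands. Mmp1a, Mmp8, Mmp27, Mmp20 and Mmp7 did not pass the filter and had set means of at most 0.563 CPM.

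The metalloproteinases outside the 10, with Timp4, formed a list of 17 genes of which 9 were tested, and E20/p53 against E20 called 3 higher and 2 lower. Their median log2 difference was 0.39. For this and the lists that follow, 42.6% of all genes were called in that comparison and their median was 0.05. Mmp11 (stromelysin-3) was lower by the test at -1.13 (adjusted p = 0.00308) and the membrane-type Mmp16 at -1.91 (adjusted p = 0.00606). The membrane-type Mmp15 was higher at 1.52 (adjusted p = 0.0127), with set means from 0.219 CPM in WT to 19.4 CPM in p53. Mmp28 (epilysin), at 3.91 to 19.9 CPM, had a log2 difference of 0.13 (adjusted p = 0.611).

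Activators and cofactors of the metalloproteinases, with the membrane inhibitor Reck, made a list of 20 genes with 19 tested. This list had 3 higher and 6 lower in E20/p53 against E20 and a median log2 difference of -0.11, and in p53 against WT it had 9 higher and 1 lower and a median of 1.08, where 54.2% of all genes were called and their median was 0.04. Its genes of highest level were the cathepsins Ctsb and Ctsl, Bsg, an inducer of metalloproteinases at the cell surface, and Cd44, a docking site of Mmp9. Of these, E20/p53 had less Ctsb than E20 (-0.64, adjusted p = 0.00734), Cd44 was higher (0.43, adjusted p = 0.00961), and Bsg (-0.05, adjusted p = 0.492) and Ctsl (-0.07, adjusted p = 0.39) did not pass. For Ctsb the means of both E20/p53 sets were below those of both E20 sets. Cd44 had set means of 400 and 327 CPM in E20 replicates 1 to 3 and 4 to 6. In the same E20/p53 replicates Cd44 was at 599 and 399 CPM, so the latter set lay within the E20 means. Reck, chosen for mention after its values were seen, was lower by 1.48 log2 units (adjusted p = 1.0e-05).

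ADAM and ADAMTS proteases, several of them targets of Timp3, numbered 18, all tested, with 2 higher and 7 lower in E20/p53 against E20 and a median of -0.32. Adam9 was lower at -0.18 (adjusted p = 0.022), and the log2 differences of Adam10 (-0.15), Adam17 (-0.47) and Adam19 (-2.16) did not pass (adjusted p = 0.501, 0.182 and 0.0695). Adam9 had set means of 356 and 306.1 CPM in E20 replicates 1 to 3 and 4 to 6. In the same E20/p53 replicates Adam9 was at 277 and 306.3 CPM, so the latter set lay within the E20 means. Against WT this list had 10 higher and 3 lower in p53 and 9 higher and 2 lower in E20, with medians of 1.79 and 1.62, where 54.2% and 55.3% of all genes were called and the median of all genes was 0.04 in both.

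Of 14 cytokines and growth factors known to induce metalloproteinase genes 11 were tested, and E20/p53 against E20 called 7 higher and 1 lower with a median of 1.18, where 23% of all genes were higher and 19.6% lower. Hbegf was higher by 2.43 log2 units (adjusted p = 5.9e-04), Tgfb2 by 1.49 (adjusted p = 0.00108) and Lif by 1.17 (adjusted p = 0.0368), while Tgfb1 did not pass (0.38, adjusted p = 0.256). For Hbegf and Tgfb2 the means of both E20/p53 sets were above those of both E20 sets. Lif had set means of 11.5 and 7.44 CPM in E20 replicates 1 to 3 and 4 to 6. In the same E20/p53 replicates Lif was at 46.3 and 9.35 CPM, so the latter set lay within the E20 means. In E20 against p53 the same list had 0 higher and 4 lower and a median of -1.11, where 30.9% of all genes were called and their median was -0.01. The 14 AP-1, ETS and Runx factors, all tested, had 3 higher and 2 lower in E20/p53 against E20 with a median of 0.18. Fosl2, a Fos family member, was higher at 0.61 (adjusted p = 0.00423) and Ets1 lower at -0.49 (adjusted p = 0.0398), and Ets2 (0.39, adjusted p = 0.218) and Runx1 (-0.09, adjusted p = 0.471) did not pass. For Fosl2 the means of both E20/p53 sets were above those of both E20 sets. Ets1 had set means of 84.2 and 167 CPM in E20 replicates 1 to 3 and 4 to 6. In the same E20/p53 replicates Ets1 was at 77.65 and 91.5 CPM, on either side of E20 replicates 1 to 3.

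Of 13 matrix proteins that these proteases cut, all tested, 1 was higher and 7 were lower in E20/p53 against E20, where 42.6% of all genes were called and 19.6% were lower, with a median of -0.96 against 0.05. Col1a2 and Col3a1, chains of fibrillar collagens, were lower at -6.07 and -4.08 (adjusted p = 0.0307 and 0.0155), while Col1a1 (-3.37, adjusted p = 0.0784) and Fn1 (-0.27, adjusted p = 0.536) did not pass. The set means of Col1a2 were 1.58 CPM in E20/p53 replicates 1 to 3 and 7391 CPM in E20/p53 replicates 4 to 6, and those of Col3a1 were 26.8 and 3733 CPM. In E20 replicates 1 to 3 and 4 to 6, Col1a2 was at 6365 and 8634 CPM and Col3a1 at 5916 and 4835 CPM. E20/p53 replicates 4 to 6 thus lay between the E20 sets for Col1a2 and below both for Col3a1. These collagens are also on the fibroblast list. Mmp2 had the same direction between the E20/p53 sets, at 25.0 and 398 CPM.

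For the 7 members whose set means had an SD of at least 1 log2 unit, the tested genes of most similar pattern were taken by Euclidean distance between the 6 centred set means, in log2 units. Mmp2 lay nearest to Map1a, at a distance of 0.50, and then Clip3, at 0.98. The nearest genes of Timp1 were Adcy1 (0.60) and Slc10a6 (0.67), and those of Timp3 were Amy1 (1.04) and Morn5 (1.11). Mmp9 was nearest to Clmp (1.22) and Slc43a1 (1.33), and Mmp10 to Sned1 (1.33) and Ndrg2 (1.35). Mmp3 and Mmp13 had no close counterpart, with Slfn3 at 2.32 and Hoxd9 at 3.73. Among the members themselves, Mmp14 was the nearest to Timp2 (1.18), Mmp19 (1.23) and Timp1 (2.48). Mmp3 and Mmp10 were nearest to each other, at 2.58, and Mmp13 was 6.20 from its nearest member, Mmp10. These distances rest on 6 points and describe likeness of level only.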

How the data were processed

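Per the labels' protocols, 18 mouse RNA libraries were prepared with TruSeq Stranded mRNA LT reagents. The deposited table holds 1 log2 value per gene and library. Per the submitters' processing notes, bcl2fastq 1.8.4, Trimmomatic, featureCounts and the build mm10 were used. Aligner, annotation and strand setting were not given in the sources used here, nor was the method of scaling. Each deposited log2 value is the log2 of (reads + 1) divided by a scaled total of its library: 100% of them returned whole reads to within 0.001. The scaled totals were 0.939 to 1.12 times the reads.

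CPM were computed from those reads and totals. The deposited log2 values were fitted with limma 3.58.1 in R 4.3.3, with a mean per group over 18 libraries and the mean-variance trend. P-values were adjusted by Benjamini-Hochberg over 15235 genes with 0.635 CPM or more (10 reads at median depth) in at least 3 libraries and 15 reads in all. An adjusted p under 0.05 was called. "Higher" and "lower" describe the group named first. The script was tested on simulated data. Those data held independent libraries without sets, so the test does not measure error rates under the sets seen here. The pair variance inside a set was 1.37 to 3.27 times counting error, so no pair agreed within sampling noise and each library was counted. This does not show that libraries of a set are separate biological samples. Depth limits genes of few reads, and such values carry counting error.

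Coordinates and exon lengths come from GENCODE M21, on the same build, and upstream sequences from RefSeq. The 10 members and the gene lists were chosen with earlier results of these data known. The other lists are named by the genes of highest mean CPM among those tested. Alternatives were other scalings, pseudocounts, filters and fits, the compared groups alone, a replicate block, and libraries or sets left out.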

Additional observations from a re-analysis of the deposited data

How the results depend on the processing

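Of the 32 called member differences, 22 stayed called in every alternative but the 6 set means. With the set means, limma called 0 members in each comparison, and 0, 0, 0, 1, 8 and 1 genes in E20/p53 against E20, E20/p53 against p53, E20 against p53, p53 against WT, E20 against WT and E20/p53 against WT, where 6491, 3924, 4709, 8259, 8428 and 7333 were called with 18 libraries. At an unadjusted p under 0.05 the set means gave 973, 422, 629, 1627, 2073 and 1574 genes. Without E20/p53 replicates 4 to 6, 9912 genes were called in E20/p53 against E20 and 9734 in E20/p53 against p53. For E20/p53 against p53, the compared groups alone called 2 members, and leaving out 1 library at a time called 2 to 4 members and 2331 to 4691 genes, with 2 members without any 1 p53 library. Plain library totals moved the median of all genes by -0.167 in E20 against WT, -0.142 in p53 against WT and 0.11 in E20/p53 against E20.

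Replicate numbers did not pair the libraries: the correlations of same-numbered deviations were all under 0.1. With the replicate block, 6410 genes were called in E20/p53 against p53, and the direction turned for Mmp9 (-0.55) and Timp2 (0.0535) there, for Mmp19 in E20 against p53 (-0.0496) and for Timp2 in E20/p53 against WT (0.0299).

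Other turned directions, as log2 differences with the cause not tested, were as follows. In E20/p53 against E20, Timp1 was 0.15 without E20 replicates 1 to 3 and 0.25 without E20/p53 replicates 1 to 3, Mmp10 was 0.89 without E20 replicates 4 to 6 and 0.69 without E20/p53 replicates 4 to 6, and Mmp3 was 0.13 without E20/p53 replicates 4 to 6. In E20/p53 against p53, Mmp14 was 0.0441, Mmp2 0.69 and Timp2 0.0581 without E20/p53 replicates 1 to 3, and Mmp10 was 0.38 and Mmp9 -0.11 without replicates 4 to 6. In E20 against p53, Mmp10 was 0.0243 on log2 of CPM plus 1 and -0.70 to 0.13 with 1 library left out, above 0 without E20 replicate 2 or 3, and without E20 replicates 1 to 3 Mmp10 was 1.33, Mmp3 0.027, Timp2 -0.0587 and Timp3 -0.74. In E20 against WT, Mmp10 was 0.0679 and Timp2 -0.0823 without E20 replicates 1 to 3, and Mmp13 was -0.40 and Mmp3 -1.21 without E20 replicates 4 to 6. In E20/p53 against WT, Timp2 was 0.0345 and Mmp19 0.0528 without E20/p53 replicates 1 to 3, and Mmp3 was 0.55 without replicates 4 to 6. Depth limits Mmp9 in WT and Mmp10 in E20 replicates 1 to 3 and E20/p53 replicates 4 to 6, which rest on 1 to 9 reads a library.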
